A study of Mus musculus with 6 samples.

Results

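The NF-kappaB pathway and its cytokines were followed as 35 genes of the 46983 in a mouse islet count table. They were chosen by role and symbol: subunits, I-kappa-B proteins, other regulators, signal proteins, cytokines, and adhesion and enzyme targets, with chemokines left out. Polyadenylated RNA was measured in 6 libraries of isolated pancreatic islets, all Wild Type, kept for 24 h in CMRL medium at low (non-stimulating, n = 3) or high (stimulating, n = 3) glucose. The sources used here give no strain, age, glucose concentration or number of animals. They also do not say whether the 3 libraries of a group are separate cultures or animals. The p-values therefore measure the spread between these libraries, which may be technical.

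NF-kappaB proteins are dimeric transcription factors held in the cytoplasm by I-kappa-B proteins. Signals from cytokine and Toll-like receptors lead to the loss of I-kappa-B, and the freed dimers switch on cytokines, adhesion molecules, survival genes and, in a feedback loop, their own inhibitors. A slower, noncanonical branch runs through processing of the Nfkb2 product and its partner Relb. In islets the pathway is best known from cultures exposed to interleukin 1 beta, where it drives Nos2 and nitric oxide.

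Library totals were 10596020 to 15846235 counts. In this bulk tissue fewer cells of a type and less RNA per cell cannot be told apart. The labels name beta cells and islets, and 9 beta-cell markers, Ins1 and Ins2 among them, took 1.46% to 3.15% of the counts at low and 2.42% to 7.08% at high glucose. After TMM scaling, a correction for library makeup, the same markers summed to 25766 to 33559 counts per 1000000 at low and to 39684, 17691 and 21185 in high glucose replicates 1 to 3. By the test described below, none of the 9 passed as higher and 4 passed as lower (Pdx1, Mafa, Slc2a2 and Ucn3), with a median log2 fold change of -1.01. Iapp was higher in every high than in every low glucose library (1.22 ± 0.40 SE) but did not pass (edgeR adjusted p = 0.0604). The 13 acinar markers took 35.1% to 46.9% at low and 9.83% to 19.9% at high glucose, so the libraries were rich in exocrine RNA and the groups differed in it. High glucose replicate 1 stood apart on the second principal component (13.6% of the variance). Of 4 glucose-response genes, 3 were lower in the libraries labelled high glucose. These were Txnip and Pklr, which glucose is known to raise in beta cells (log2 fold change -2.15 ± 0.54 SE and -2.48 ± 0.39), and Mlxipl, which encodes the glucose-sensing factor ChREBP (-2.95 ± 0.39). Arrdc4 was higher (1.24 ± 0.20). The labels were used as given, and whether they are right was not tested.

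Values below are CPM, counts per 1000000 after TMM scaling, and fold changes are log2, high minus low glucose, ± SE. A gene was called when the adjusted p of edgeR's quasi-likelihood test was under 0.05. Of the 34 members tested, 15 rose at high glucose, against 13.3% of all 13996 genes tested, and 1 fell, against 14.2%. The members were chosen with earlier results of these data known, so these shares are a description only. The same shares of all genes stand beside the counts by role below, which are a description too. Il6, Il11, Lif, Ptgs2 and Nos2 rose from near 0, Nfkb2, Rela and Relb rose by 1.85 to 1.97 on the log2 scale, and Il18 fell. The median fold change of the tested members was 1.06, beside 0.01 over all genes tested. Nfkbid, Map3k8, Tnf, Il6, Il11, Lif, Nos2 and Ptgs2 (8 members) passed the low-count filter only through the high glucose libraries, and 5 of these were called. The other 26 reached the filter's level in all 3 low glucose libraries, and 10 of them rose. The share of all genes split in this way was not computed, so these counts have no background of their own. When libraries were scaled by their totals, the median of all genes moved to 1.16, and 30 members passed as higher, with 59.7% of all genes higher and 4.49% lower. With the replicate block 19 members and 15.7% of all genes did, and without low glucose replicate 2, the library whose loss cost the most calls, 11 members and 4.86%. Libraries of the groups did not overlap for 22 members higher at high glucose (23.5% of all genes tested) and 1 lower (22.4%). The 15 members kept their direction under each scaling run.

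**Figure D1:**
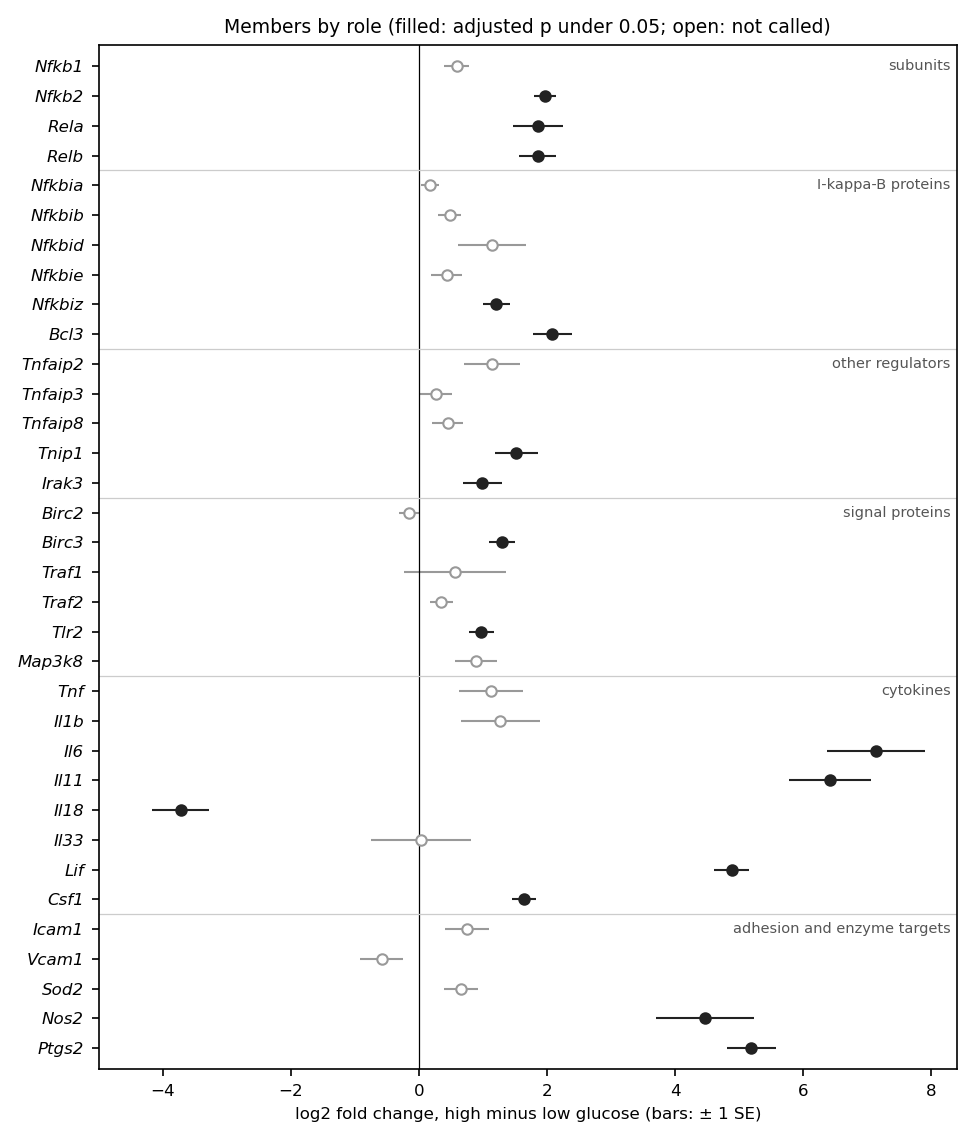
Log2 fold change (high minus low glucose, x axis) of the 34 tested members by role, with bars of 1 SE; filled points have an adjusted p under 0.05. The 3 largest increases belong to the cytokines Il6 and Il11 and the enzyme Ptgs2, and Il18 is the filled point left of 0, at -3.72.

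All members with a promoter window, whether or not they rose, were searched for the kappa-B site, the DNA element that NF-kappaB dimers bind. RefSeq promoter windows (GRCm38.p6, 250 bases before to 50 after a start) were found for 28 members, and not for Nfkb1, Relb, Nfkbiz, Tnfaip8, Map3k8, Vcam1 and Nos2. The degenerate 10-base kappa-B consensus, searched on both strands, was in a window of 13 of the 28 (46.4%), against 9.55% of all 27025 genes with a window. It was in 7 of the 12 members with a window that rose and in 6 of the other 16. The members were chosen as parts and targets of this pathway, so these shares are a description only. The stretches below show where the match lies in the 5 members that rose with the smallest p and held one upstream of the start, each read 5′ to 3′ on the gene's strand with the match in capitals.
Lif (chr11:4257368-4257556, + strand): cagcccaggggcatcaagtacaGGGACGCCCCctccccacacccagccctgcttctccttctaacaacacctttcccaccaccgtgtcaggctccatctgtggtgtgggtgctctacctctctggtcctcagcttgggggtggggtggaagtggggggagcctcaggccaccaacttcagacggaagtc
Nfkb2 (chr19:46304688-46304717, + strand): ggatcgtcacGGGAATTCCCCccctcgggg
Il6 (chr5:30012914-30013113, + strand): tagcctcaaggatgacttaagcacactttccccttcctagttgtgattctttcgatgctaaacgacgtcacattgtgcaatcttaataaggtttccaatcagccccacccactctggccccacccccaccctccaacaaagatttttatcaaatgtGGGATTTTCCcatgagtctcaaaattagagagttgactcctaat
Csf1 (chr3:107760470-107760669, - strand): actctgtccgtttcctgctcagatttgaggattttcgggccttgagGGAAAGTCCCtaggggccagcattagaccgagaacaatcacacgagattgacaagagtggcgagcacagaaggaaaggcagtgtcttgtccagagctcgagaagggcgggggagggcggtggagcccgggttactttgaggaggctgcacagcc
Tlr2 (chr3:83841768-83841808, - strand): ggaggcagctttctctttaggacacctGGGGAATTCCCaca
Nfkbia (chr12:55492648-55492847, - strand): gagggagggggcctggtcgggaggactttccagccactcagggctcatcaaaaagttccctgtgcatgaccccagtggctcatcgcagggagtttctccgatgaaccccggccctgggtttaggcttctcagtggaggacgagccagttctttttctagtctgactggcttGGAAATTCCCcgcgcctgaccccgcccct

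Counted from the start, the match shown begins 44 bases upstream in Il6, 39 in Nfkb2, 154 in Csf1, 173 in Tlr2 and 178 in Lif. In Nfkb2 and Tlr2 the capitals are 2 overlapping matches. These windows also hold a match not shown, beginning 11 bases upstream in Nfkb2 and 8 upstream in Tlr2, where it runs past the start. Other RefSeq starts of Nfkb2 have further matches, and the Nfkb2 stretch lies within an annotated Nfkb2 exon of GENCODE M21. Nfkbia was added after its values were seen, as a member that holds a match 29 bases upstream and did not pass the test. No match was found in the windows of Il11, Ptgs2, Rela, Birc3 and Irak3, which rose, and of Il18, which fell. That says only that these letters are not in these windows.

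Of the 4 subunit genes 3 rose. Nfkb2 (chromosome 19, 46304320 to 46312385), which encodes the precursor of the noncanonical subunit, had 18.3, 14.1 and 15.1 CPM in low glucose replicates 1 to 3 and 54.7, 67.9 and 64.4 CPM in high glucose replicates 1 to 3. All 3 high glucose libraries lay well above the low ones, a rise of 1.97 ± 0.17 (edgeR adjusted p = 6.97e-04). Relb (chromosome 7, 19606217 to 19629438), the noncanonical partner, had 10.7, 9.31 and 6.92 CPM at low and 21.1, 38.3 and 38.8 CPM at high glucose. The groups did not overlap, and high glucose replicate 1 had the smallest increase. The rise of Relb was 1.85 ± 0.29 (edgeR adjusted p = 0.00459).

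Rela (chromosome 19, 5637483 to 5648130), the main transactivating subunit of the canonical branch, had 33.1, 40.1 and 53.3 CPM at low and 73.7, 193 and 192 CPM at high glucose. Again high glucose replicate 1 lay between the low group and the other 2 high libraries. Rela rose by 1.86 ± 0.39 (edgeR adjusted p = 0.0126), but not with low glucose replicate 2 left out (1.84, adjusted p = 0.0598). Nfkb1, which encodes the precursor of the canonical DNA-binding partner of Rela, had 54.6, 44.4 and 44.7 CPM at low and 90.2, 60.1 and 66.4 CPM at high glucose. Its groups did not overlap either, but the difference of 0.59 ± 0.19 did not pass (edgeR adjusted p = 0.0574). With the replicate block Nfkb1 passed, at 0.58 (edgeR adjusted p = 0.0247), as it did with library totals, no filter and DESeq2. Part of Nfkb2 (299 exonic bases) overlaps Psd on the opposite strand. Psd had 802 counts in the 6 libraries against 4583 of Nfkb2, and with the strand setting unknown their reads cannot be told apart there.

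**Figure D2:**
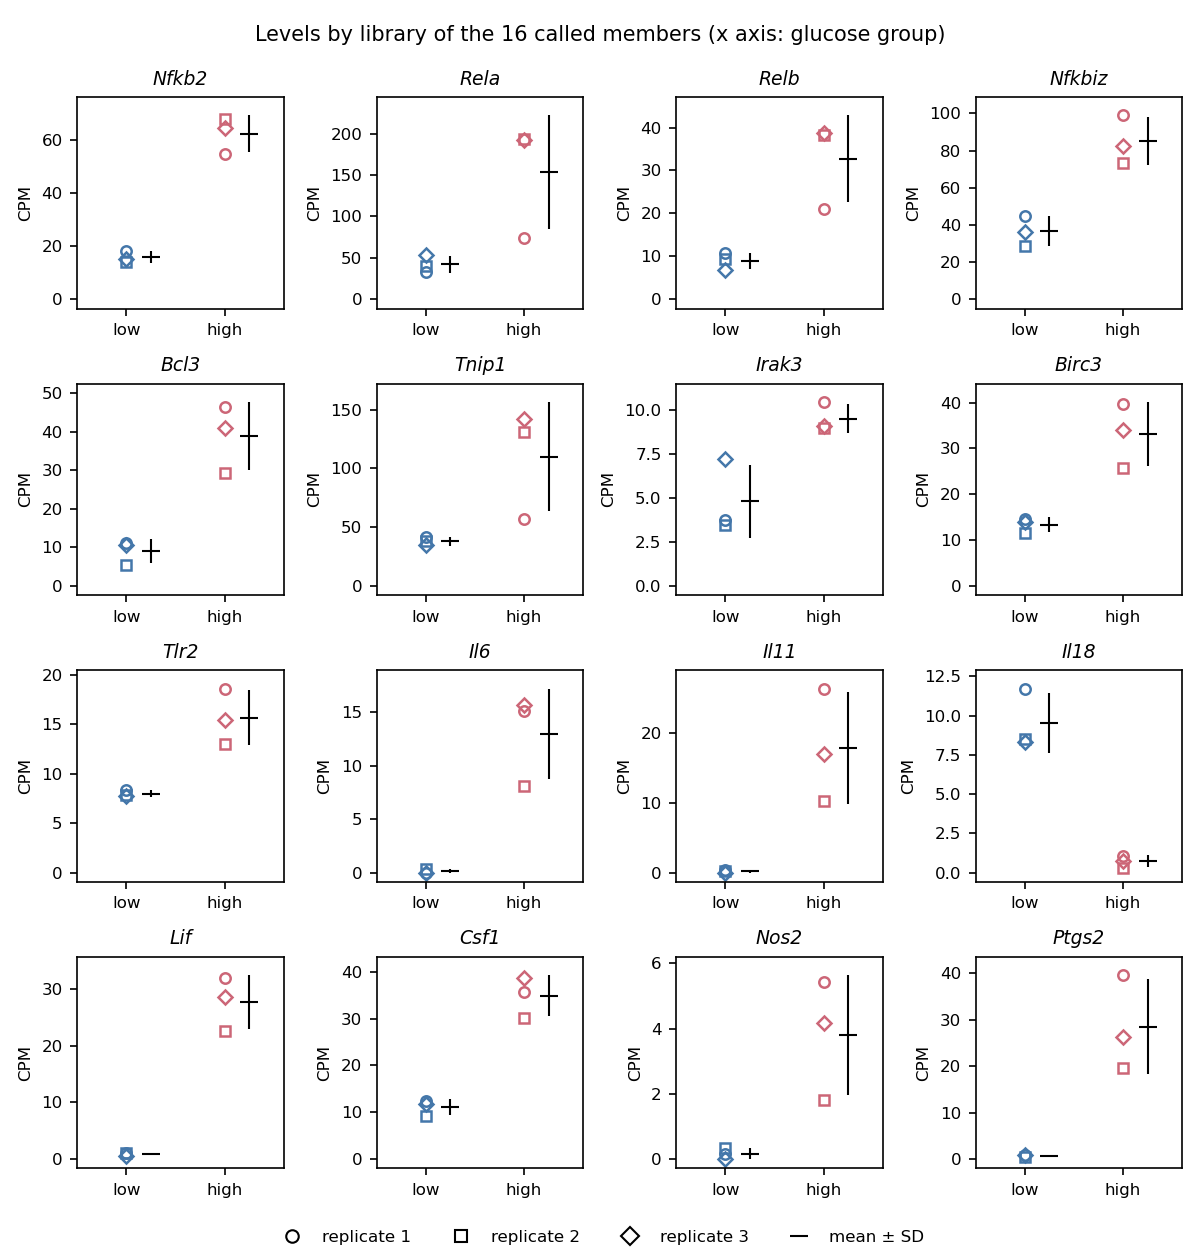
CPM (y axis, from 0, a scale for each panel) of the 16 called members in the 3 low and 3 high glucose libraries, with a symbol for each replicate number and mean ± SD beside the points. No panel has overlapping groups, and high glucose replicate 1 is the lowest high glucose point for Nfkb2, Rela, Relb and Tnip1.

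Among the 6 I-kappa-B genes, 2 rose and none fell, and both belong to the nuclear, atypical kind that works on promoters with NF-kappaB dimers. Bcl3 (chromosome 7, 19808462 to 19822770), a nuclear cofactor of the Nfkb1 and Nfkb2 products, had 11.0, 5.49 and 10.7 CPM at low and 46.5, 29.3 and 40.9 CPM at high glucose. The high glucose libraries were all above 29, the low ones at 11.0 or below, and the rise was 2.08 ± 0.30 (edgeR adjusted p = 0.00334). Nfkbiz (chromosome 16, 55811375 to 55838899), which encodes the nuclear I-kappa-B-zeta needed for Il6 induction in macrophages, had 44.8, 28.6 and 36.3 CPM at low and 98.9, 73.5 and 82.4 CPM at high glucose. Every high glucose library exceeded every low one, and the rise was 1.21 ± 0.21 (edgeR adjusted p = 0.00602).

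The classical cytoplasmic inhibitors did not pass. Nfkbia, which encodes I-kappa-B-alpha, the feedback inhibitor resynthesised after activation, had 46.0, 56.0 and 53.0 CPM at low and 62.4, 51.6 and 60.5 CPM at high glucose. Its groups overlapped, and the difference was 0.17 ± 0.15 (edgeR adjusted p = 0.413). Nfkbib, the beta inhibitor, had 18.7, 21.8 and 27.0 CPM at low and 27.7, 33.4 and 32.8 CPM at high glucose. These groups touched without overlapping, and the difference of 0.48 ± 0.18 did not pass (edgeR adjusted p = 0.0873). Nfkbib did pass without low glucose replicate 3 (0.65, edgeR adjusted p = 0.0486), without high glucose replicate 1 (0.57, edgeR adjusted p = 0.0409) and with library totals. Nfkbie (0.43 ± 0.24) and the nuclear Nfkbid (1.14 ± 0.52, 31 counts over the low glucose libraries) did not pass either.

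Of 5 other regulators, 2 rose. Tnip1 (chromosome 11, 54910785 to 54962917), whose product binds ubiquitin and restrains NF-kappaB together with that of Tnfaip3, had 42.1, 37.9 and 34.6 CPM at low and 56.7, 131 and 142 CPM at high glucose. As for Rela, high glucose replicate 1 stood only a little above the low group. Tnip1 rose by 1.52 ± 0.33 (edgeR adjusted p = 0.0152), a call lost without low glucose replicate 2 (1.53), low glucose replicate 3 (1.47) or high glucose replicate 3 (1.31), where edgeR adjusted p was 0.0637, 0.0523 and 0.0501.

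Irak3, an inhibitor of interleukin 1 and Toll-like receptor signals, had 3.77, 3.49 and 7.23 CPM at low and 10.5, 8.99 and 9.12 CPM at high glucose. Its rise of 0.99 ± 0.31 was just past the threshold (edgeR adjusted p = 0.0496). It was lost with RLE scaling, hormone and granule gene scaling, the filter at 1 CPM and 5 of the 6 fits with 1 library left out (all but low glucose replicate 3), with adjusted p up to 0.158. Irak3 also shares 192 exonic bases with Tmbim4 on the opposite strand, which had 2060 counts against its 769.

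Tnfaip3, a deubiquitinating brake on the pathway and a standard NF-kappaB target, averaged 12.8 ± 2.68 CPM in the low and 15.4 ± 4.02 CPM in the high glucose group (SD, n = 3 each). It did not pass (0.26 ± 0.25, edgeR adjusted p = 0.470). Tnfaip2, a cytokine-induced gene, had 8.20, 5.15 and 7.55 CPM at low and 25.4, 7.74 and 13.4 CPM at high glucose, with high glucose replicate 2 inside the low range. Its 1.14 ± 0.43 did not pass (edgeR adjusted p = 0.0881), but it did in 6 of 14 alternatives. These were the replicate block (1.05, edgeR adjusted p = 0.0208), library totals, hormone and granule gene scaling, no filter, DESeq2, and high glucose replicate 2 left out. Tnfaip8 was 0.45 ± 0.24 and did not pass, though it did without high glucose replicate 1 (0.65, edgeR adjusted p = 0.0208) and with library totals.

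Among 6 signal proteins, Birc3 and Tlr2 rose. Birc3 (chromosome 9, 7848699 to 7873186), a ubiquitin ligase of the TNF receptor complex and itself an NF-kappaB target, had 14.6, 11.6 and 14.0 CPM at low and 39.7, 25.8 and 33.9 CPM at high glucose. The groups were well apart, and the rise was 1.30 ± 0.20 (edgeR adjusted p = 0.00460). Its neighbour and paralog Birc2 did not pass, with 29.3 ± 3.72 CPM in the low and 26.4 ± 2.62 CPM in the high glucose group (SD, n = 3 each; log2 fold change -0.16 ± 0.16). Tlr2 (chromosome 3, 83836272 to 83841767), a receptor for bacterial lipoproteins, had 8.37, 7.81 and 7.71 CPM at low and 18.6, 13.0 and 15.5 CPM at high glucose. It rose by 0.98 ± 0.20 (edgeR adjusted p = 0.0117), and the call was lost without low glucose replicate 2 (0.98, adjusted p = 0.0548).

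Map3k8, a kinase released from the Nfkb1 precursor, had 1.59, 1.16 and 1.42 CPM at low and 3.15, 2.35 and 2.32 CPM at high glucose. The high glucose libraries were all higher, yet the difference of 0.89 ± 0.32 did not pass (edgeR adjusted p = 0.0787). The adaptor genes Traf2 (0.35 ± 0.18) and Traf1 (0.57 ± 0.80) did not pass. Traf1 differed more within the high glucose group than between the groups, at 12.8, 0.998 and 3.53 CPM.

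The 9 cytokine genes moved in different ways. Il6, Il11 and Lif, which encode the 3 cytokines of the list that signal through the shared receptor chain Il6st, were nearly absent at low glucose. Il6 (chromosome 5, 30013114 to 30019981) had 0, 0.332 and 0 CPM at low and 15.1, 8.09 and 15.7 CPM at high glucose. That is 2 counts in the whole low glucose group against 901 in the high glucose group, 161 times as many after scaling (exact 95% interval 44.4 to 1329.8, which covers counting error only; edgeR adjusted p = 0.00137).

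Il11 (chromosome 7, 4772373 to 4782859) had 0.335, 0.166 and 0 CPM at low and 26.3, 10.3 and 16.9 CPM at high glucose. With 5 counts at low and 1285 at high glucose the ratio was 91.7 (interval 39.2 to 283; edgeR adjusted p = 0.00116). Lif (chromosome 11, 4257557 to 4272514), leukaemia inhibitory factor, had 1.09, 0.997 and 0.629 CPM at low and 31.9, 22.6 and 28.6 CPM at high glucose. Its libraries were tight within each group, and it rose by 4.88 ± 0.27 (edgeR adjusted p = 3.64e-04). For each of these 3 genes high glucose replicate 2 was the lowest of its group and still far above every low glucose library.

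Csf1 (chromosome 3, 107741048 to 107760469), the macrophage growth factor, had 12.4, 9.14 and 11.8 CPM at low and 35.7, 30.1 and 38.7 CPM at high glucose. The rise was 1.64 ± 0.19 (edgeR adjusted p = 0.00153), and unlike the previous 3 genes Csf1 was already well measured at low glucose. Il18 (chromosome 9, 50554827 to 50581840), a cytokine that epithelial cells and macrophages hold as a precursor, was the only member to fall. Il18 had 11.7, 8.48 and 8.33 CPM at low and 1.06, 0.300 and 0.756 CPM at high glucose. It fell by 3.72 on the log2 scale (SE 0.45, edgeR adjusted p = 0.00185) and passed in every alternative fit.

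The cytokines that usually start the response were scarce and uneven. Il1b had 2.76, 1.50 and 1.57 CPM at low and 9.20, 1.95 and 3.28 CPM at high glucose, with high glucose replicate 2 inside the low range. Its 1.27 ± 0.62 did not pass (edgeR adjusted p = 0.160). It passed with the replicate block (1.16, edgeR adjusted p = 0.0463) and with library totals, and without high glucose replicate 1 it was 0.38. Tnf had 0.418, 0.166 and 0.629 CPM at low and 0.707, 1.05 and 0.957 CPM at high glucose, 10 and 60 counts in all. The libraries did not overlap, but 1.12 ± 0.50 did not pass (edgeR adjusted p = 0.133). Il1a was below the filter and was not tested in the main fit. It had 8 counts at low and 126 at high glucose, 82 of them in high glucose replicate 1. Its scaled ratio was 5.62 (exact 95% interval 2.77 to 13.3, which covers counting error only). Il1a passed as higher with no filter, with DESeq2 and without high glucose replicate 2. Il33, an alarmin stored in nuclei, had 4.18, 3.32 and 5.35 CPM at low and 8.91, 0.599 and 3.58 CPM at high glucose, and its sign changed without high glucose replicate 1 (0.04 to -1.03).

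Receptors and decoys of these cytokines were taken as a second list of 16 genes, 15 of them tested, of which 5 rose and 3 fell (all genes tested, 13.3% and 14.2%). This list too was chosen with earlier results of these data known, so the shares are a description only. The receptor chains other than Il6st for the 3 induced ligands all fell. Lifr had 104, 127 and 141 CPM at low and 24.2, 30.3 and 33.3 CPM at high glucose, a fall of 2.08 (SE 0.19, edgeR adjusted p = 9.48e-04). Il11ra1 had 12.2, 23.4 and 21.1 CPM at low and 6.05, 5.74 and 5.84 CPM at high glucose, and it fell by 1.67 (SE 0.27, edgeR adjusted p = 0.00472). In both genes the groups were apart, and the 3 high glucose libraries of Il11ra1 were nearly equal.

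Il6ra had 76.4, 43.4 and 63.4 CPM at low and 33.8, 22.5 and 20.9 CPM at high glucose, and it fell by 1.25 (SE 0.27, edgeR adjusted p = 0.0139). With library totals Lifr still passed (-0.90), while Il11ra1 (-0.43) and Il6ra (-0.12) did not. The call of Il6ra was also lost when the hormone and granule genes set the scale (-1.03) and with low glucose replicate 1 (-1.05) or high glucose replicate 3 (-1.11) left out. Osmr, the receptor chain for the related cytokine oncostatin M, had 6.53, 5.15 and 9.12 CPM at low and 11.5, 35.2 and 38.0 CPM at high glucose. It rose by 2.02 (SE 0.46, edgeR adjusted p = 0.0178), but not with limma-voom (1.87) or without low glucose replicate 1 (1.97), low glucose replicate 2 (1.87) or high glucose replicate 3 (1.76). The shared chain Il6st, named after its values were seen, averaged 86.1 ± 14.9 CPM in the low and 126 ± 6.63 CPM in the high glucose group (SD, n = 3 each) and did not pass (0.55 ± 0.17, edgeR adjusted p = 0.0520).

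**Figure D3:**
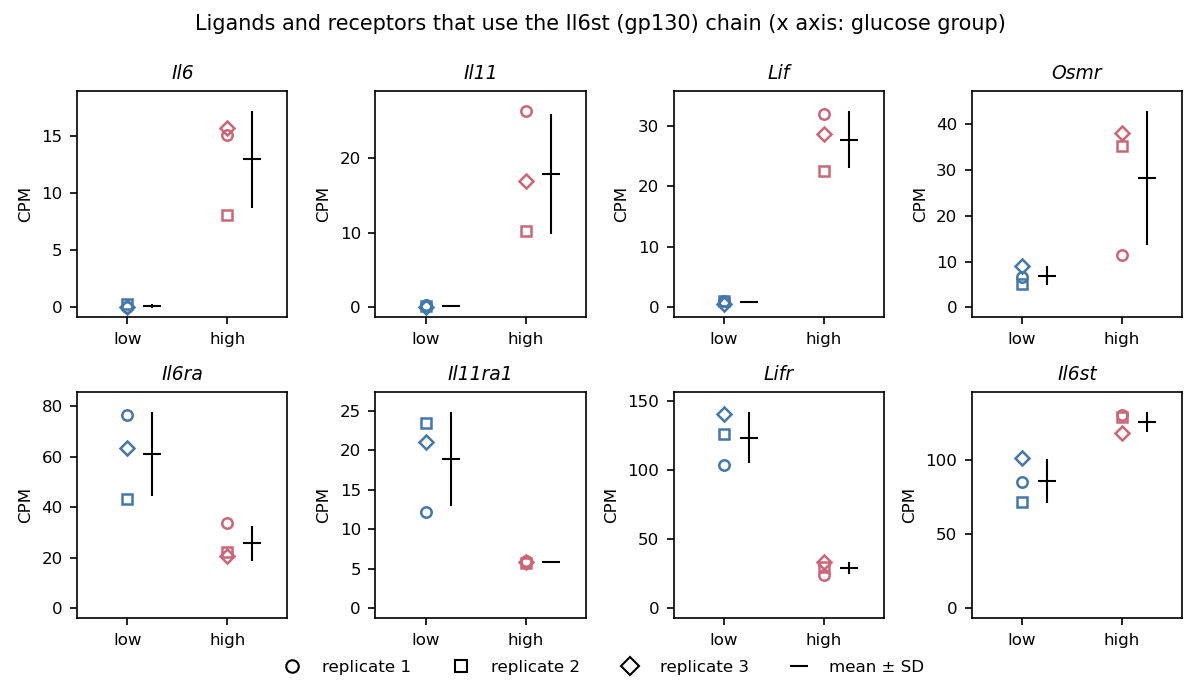
CPM (y axis, from 0, a scale for each panel) by library of the ligand genes Il6, Il11 and Lif and of the receptor genes Osmr, Il6ra, Il11ra1, Lifr and Il6st, with a symbol for each replicate number and mean ± SD. The ligand panels are near 0 at low glucose, whereas the panels of Il6ra, Il11ra1 and Lifr are higher at low glucose.

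Genes of soluble antagonists in the receptor list did not move alike. Il1rn, the interleukin 1 receptor antagonist, had 0.837, 1.50 and 0.943 CPM at low and 30.5, 35.1 and 37.8 CPM at high glucose, a rise of 5.02 ± 0.26 (edgeR adjusted p = 2.89e-04). Il18bp, which neutralises the product of Il18, had 3.01, 2.33 and 4.72 CPM at low and 16.7, 10.1 and 19.7 CPM at high glucose. It rose by 2.21 ± 0.35 (edgeR adjusted p = 0.00484), opposite in sign to Il18. Il1r2, the interleukin 1 decoy receptor gene, named after its values were seen, did not pass (-0.15 ± 0.54, edgeR adjusted p = 0.865). Of the ligand genes, Il1b was not called, and Il1a was not tested in the main fit. Tnfrsf1a, the main TNF receptor gene, rose by 0.85 ± 0.13 (edgeR adjusted p = 0.00429), a call lost with hormone and granule gene scaling (1.11).

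Of the 5 adhesion and enzyme targets, the 2 inducible enzymes rose. Both passed the low-count filter only through the high glucose libraries. Ptgs2 (chromosome 1, 150100031 to 150108227), the inducible prostaglandin synthase, had 0.837, 0.499 and 0.943 CPM at low and 39.6, 19.5 and 26.4 CPM at high glucose. All low glucose libraries were under 1 CPM, and the rise was 5.19 ± 0.38 (edgeR adjusted p = 5.70e-04). Nos2 (chromosome 11, 78920787 to 78960254), the inducible nitric oxide synthase, had 0.167, 0.332 and 0 CPM at low and 5.41, 1.80 and 4.18 CPM at high glucose. With 4 counts at low and 272 at high glucose the scaled ratio was 24.3 (interval 9.37 to 89.7; edgeR adjusted p = 0.00613).

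Sod2, the mitochondrial superoxide dismutase, had 44.6, 52.5 and 52.7 CPM at low and 112, 57.8 and 66.3 CPM at high glucose. Most of its difference came from high glucose replicate 1, and 0.66 ± 0.26 did not pass (edgeR adjusted p = 0.0965), though it did with library totals and with no filter. The adhesion molecule gene Icam1 averaged 7.51 ± 2.14 CPM in the low and 12.7 ± 4.61 CPM in the high glucose group (SD, n = 3 each). Its groups overlapped and 0.75 ± 0.34 did not pass (edgeR adjusted p = 0.137), although it did with the replicate block (0.74, edgeR adjusted p = 0.0418) and with library totals. Vcam1, the endothelial adhesion molecule gene, was -0.58 ± 0.34 and did not pass.

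Levels of different genes were compared as CPM per kb of exon (all GENCODE M21 exons of a gene joined, which understates genes whose long exons are little used). At low glucose Nfkbia was the most abundant member, at 32.1 ± 3.18, followed by Rela at 13.7 ± 3.35 (SD, n = 3). Tnip1 (10.8) and Nfkbib (10.4) came next, within their spread of Rela. At high glucose Rela led at 49.8 ± 22.3, with Nfkbia at 36.1 ± 3.58 and Tnip1 at 31.1 ± 13.1, 3 means that did not differ beyond their spread. Il11 (8.57), Lif (6.36), Ptgs2 (6.22) and Il6 (5.34) reached the range of the subunit gene Nfkb1 (5.99) there, from 0.208 or less at low glucose. Nos2 (0.861), Il1a (0.863) and Tnf (0.552) stayed under 1.

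**Figure D4:**
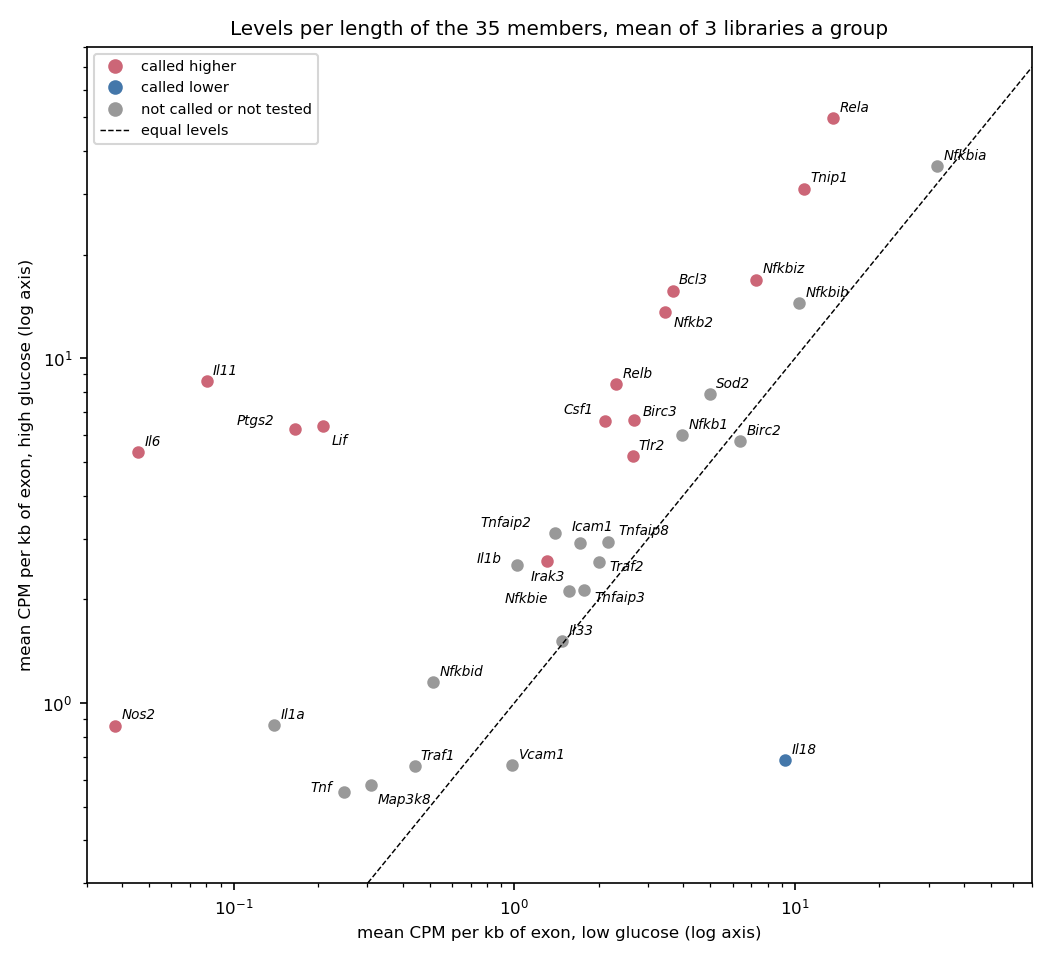
Mean level per length (CPM per kb of exon) of the 35 members at low (x, log axis) and high glucose (y, log axis), n = 3 libraries each, coloured by the call; the dashed line marks equal levels. Nfkbia lies close to the line near the top, Il6, Il11, Lif, Ptgs2 and Nos2 lie far above it on the left, and Il18 lies far below it.

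Other pathway genes were read from a list of 43 receptors, adaptors, kinases and ubiquitin enzymes, all tested. Tnfrsf1a, Tnfrsf1b, Il1r1 and Il1rap are also in the receptor list, so the rise of Tnfrsf1a counts in both. Of the 43, 10 rose and 1 fell, with a median of 0.28, where 13.3% of all genes tested rose and 14.2% fell. These shares are a description only, because the list was chosen with earlier results of these data known. Tnfrsf12a, the TWEAK receptor gene that feeds the noncanonical branch, had 2.51, 2.33 and 4.25 CPM at low and 45.8, 103 and 88.0 CPM at high glucose, a rise of 4.72 ± 0.40 (edgeR adjusted p = 6.87e-04). Myd88, the adaptor of Toll-like and interleukin 1 receptors, rose by 1.35 ± 0.20 (edgeR adjusted p = 0.00354). Ripk1, the kinase of the TNF receptor complex, rose by 0.80 ± 0.16 (edgeR adjusted p = 0.0101), a call lost with hormone and granule gene scaling (1.12). Irak1, a kinase downstream of Myd88, fell by 0.76 (SE 0.22, edgeR adjusted p = 0.0387). The fall of Irak1 was lost in 7 of 14 alternatives, and its sign changed with library totals (0.46). The I-kappa-B kinase genes Chuk (-0.19 ± 0.14) and Ikbkb (0.46 ± 0.19) did not pass, while that of their regulatory subunit, Ikbkg, rose by 0.83 ± 0.17 (edgeR adjusted p = 0.0129). These 3 kinase-complex genes were named after their values were seen.

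NF-kappaB targets and cytokines are also made by immune and stromal cells, whose markers were measured beside them. Of 16 macrophage markers 2 rose (Cd14 and Cd68) and 4 fell (Mrc1, Aif1, C1qa and Cx3cr1), and the summed level was 194 to 279 CPM at low and 70.9 to 241 CPM at high glucose. Cd14, a co-receptor for bacterial lipopolysaccharide, had 1.76, 2.49 and 2.67 CPM at low and 21.4, 37.2 and 50.8 CPM at high glucose (4.01 ± 0.38, edgeR adjusted p = 0.00106), and the rise of Cd68 was 1.46 ± 0.36. The complement gene C1qa had 32.8, 30.4 and 38.2 CPM at low and 13.7, 3.89 and 5.79 CPM at high glucose. The 8 neutrophil markers summed to 4.32 to 15.7 CPM at low and 1.55 to 11.1 CPM at high glucose, none of the 3 tested passed, and Ly6g had 0 counts. The 10 lymphocyte markers (8 tested, 0 called) summed to 68.0 to 96.7 and 6.59 to 98.5 CPM. On this scale no high glucose library was above the low glucose range in these 3 immune lists, except replicate 1 for lymphocytes. As a share of all counts, high glucose replicate 1 was above it in all 3, with 0.0431% macrophage (at most 0.0239% at low glucose), 0.00199% neutrophil (at most 8.55e-04%) and 0.0176% lymphocyte markers (at most 0.00907%).

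Endothelial markers (10, of which 2 fell) summed to 297 to 365 CPM at low and 160 to 334 CPM at high glucose, and stellate-cell and fibroblast markers (10, of which 4 fell) to 318 to 419 and 46.0 to 273 CPM. As a share of all counts, high glucose replicate 1 was above the low glucose range for both lists. It had 0.0595% endothelial (at most 0.0342% at low glucose) and 0.0486% stellate markers (at most 0.0366%). Replicates 2 and 3 were within that range for endothelial markers (0.0219% and 0.0324%) and below it for stellate markers (0.00630% and 0.0110%). Duct markers (10, of which 3 rose and 2 fell) summed to 1180.0 to 2180 CPM at low and 1259 to 3334 CPM at high glucose. Cldn4 (5.47), Krt19 (2.89) and Krt7 (2.05) rose, and Tff2 (-2.31) and Onecut2 (-2.71) fell, with a median of -0.27 over the list. Single genes weigh heavily in the sums. Cldn4 gave 528, 1757 and 1517 CPM in high glucose replicates 1 to 3. Tff2 gave 575, 1410 and 1336 CPM in low glucose replicates 1 to 3. As a share of all counts, duct markers took 0.111% to 0.122% at low and 0.225% to 0.456% at high glucose. The part of duct, acinar and other cell types in the members' changes was not tested.

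**Figure D5:**
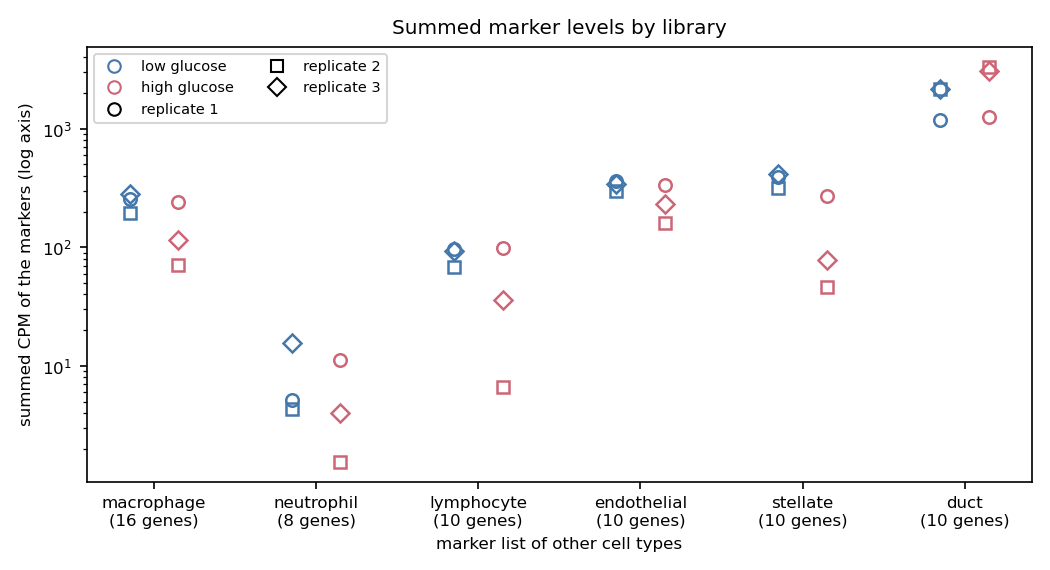
Summed CPM (y, log axis) of the marker genes of 6 other cell types in each library (blue, low; red, high glucose; a symbol for each replicate number). In the first 5 lists high glucose replicate 1 is the highest and replicate 2 the lowest of the high glucose libraries; for duct markers replicate 1 is the lowest.

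The high glucose libraries differed among themselves along similar lines. High glucose replicate 1 was the highest of its group for 24 of the 34 tested members (70.6%, against 41.2% of all genes tested), and replicate 2 the lowest for 25 (73.5%, against 32.0%). Macrophage, neutrophil, lymphocyte, endothelial, stellate and beta-cell markers summed in that same order, the beta-cell list to 39684, 17691 and 21185 CPM in replicates 1 to 3. A list of 6 alpha- and delta-cell markers was also highest in replicate 1 but lowest in replicate 3. Nfkb2, Rela, Relb, Nfkbib, Tnfaip8, Tnip1, Traf2 and Tnf were instead lowest in replicate 1, as were the duct and acinar lists. Acinar markers summed to 55110, 145167 and 135301 CPM in replicates 1 to 3. Whether these markers have a part in the spread of the members was not tested. Leaving out replicate 1 gave 16 members higher and 1 lower, where 19.8% and 20.5% of all genes passed.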

How the data were processed

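Reads per gene were counted by the authors with STAR 2.7.3a and HTSeq 0.6.1p1 on GRCm38, per the submitters' processing notes, and the raw counts were deposited with no normalization, 1 column per library. The sources used here do not give the annotation release, the strandedness of counting, read filtering or whether molecular barcodes were used. Counting intervals therefore cover counting error only.

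Columns were matched to samples by name, and gene symbols and coordinates came from GENCODE M21 (GRCm38). Of 46983 genes 495 had no symbol there (0.0141% of the counts). Genes were tested in edgeR 4.0.16 (R 4.3.3) by its quasi-likelihood test, with TMM scaling, filterByExpr defaults (minimum count 10, minimum total 15) and Benjamini-Hochberg adjustment over the 13996 genes kept. The SE of a log2 fold change was obtained by dividing it by the square root of F. The fit was also run on simulated counts drawn with its own scaling and spread and few changed genes. That run therefore cannot check the scaling. Intervals of count ratios are exact 95% conditional binomial intervals.

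Replicate numbers are shared by the groups. Deviations from the group means of same-numbered libraries correlated at 0.403, 0.257 and 0.254, those of other pairs between -0.306 and 0.0748. These values are not independent of each other, and no label states a pairing. Every same-numbered pair exceeded 0.1, the rule set for pairing, but without a label it stays unknown whether the numbers mark a shared source. The fit reported is without the replicate block, so its p-values do not use a possible pairing. The blocked value is given where it changed a call.

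Members, further lists and the naming rule were chosen with earlier results of these data known. All 35 members are accounted for. Each called member and, within each role, the uncalled member with the smallest p is given by library, and up to 4 called genes in each direction were named from the 2 other lists, beside genes said to be named after their values were seen. Alternatives were RLE scaling, library totals, scaling to hormone and granule genes, 2 other filters, DESeq2 1.42.0, limma-voom (limma 3.58.1), a replicate block, and fits lacking 1 library. Promoter windows came from RefSeq (GRCm38.p6). Figures were drawn with matplotlib 3.10.9.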

Additional observations from a re-analysis of the deposited data

How the results depend on the processing

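Of the 16 called members, 12 kept direction and call in all 14 alternatives, and Rela, Tlr2, Tnip1 and Irak3 lost the call in 1, 1, 3 and 8. The number of members that rose was 30 with library totals (59.7% of all genes) and 11 to 16 with 1 library left out (4.86% to 19.8%). Il18 stayed the 1 member that fell. Over all genes, 3848 changed, 8978 with library totals, 2072 with hormone and granule gene scaling, and 1743 to 5685 with 1 library left out. The other pathway genes (11 called) gave 37 with library totals, 4 with hormone and granule gene scaling and 7 with limma-voom. They gave 5 to 15 with 1 library left out. Of all genes tested, the main fit called 27.5%, library totals 64.1%, hormone and granule gene scaling 14.8% and limma-voom 24.6%. The fits with 1 library left out called 12% to 40.3% of all genes. Receptor genes (8 called) gave 5 to 9 with 1 library left out. With the replicate block 4670 genes and 19 members passed as changed or higher, and it changed no call other than those of Nfkb1, Tnfaip2, Il1b and Icam1 among the members. Signs changed for Birc2 (0.97 with library totals, 0.10 with hormone and granule gene scaling), Vcam1 (0.54 with library totals), Irak1 (0.46 with library totals), Traf1 (-0.80 without high glucose replicate 1, up to 1.07 with another library left out) and Il33 (-0.0078 with hormone and granule gene scaling, -0.50 with limma-voom, -0.41 with the replicate block, -0.09 without low glucose replicate 2, -1.03 without high glucose replicate 1, up to 0.56 with another library left out). The causes were not tested. The kappa-B match was in 12 of the 28 members with a window when the upstream bases alone were used (8.23% of all genes with a window). With the stricter consensus it was in 11 (5.14%). Depth limits Tnf, Il1a and Nfkbid, with 10, 8 and 31 counts over the low glucose libraries. It also limits the fold changes of the called Il6, Nos2, Il11, Ptgs2 and Lif, with 2, 4, 5, 19 and 23 counts there.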
